A study of Mus musculus with 6 samples.

Results

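The smooth muscle contractile apparatus was followed here through 45 named mouse genes, all of which were found among the 27546 genes of the expression table. The 45 genes were taken from a list of symbols that was chosen with earlier results of these data known. They comprise 7 actin and myosin genes, 10 genes of the actin thin filament, 14 genes that anchor and cross-link filaments, 4 genes that set myosin phosphorylation, 3 calcium store genes, 4 genes of cGMP-driven relaxation, and 3 transcriptional regulators. In a split made by hand, also with earlier results of these data known, 28 were placed as muscle-enriched and 17 as broadly expressed.

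RNA-Seq was performed on distal colon from 3 Gm31629-/- mice and 3 WT littermates of strain C57BL/6, each mouse giving 1 library. At 8 weeks of age, all 6 mice received 3% dextran sulfate sodium (DSS, a chemical that injures the colon lining) in their drinking water for 7 days, and they were killed on day 8. The Gm31629-/- mice lack a long noncoding RNA locus in every cell, and no untreated mice were part of the comparison. The study's methods describe total RNA as pooled from 3 and 3 mice while the table holds a column per mouse, so the p-values measure the spread between these 6 libraries.

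The colon wall carries smooth muscle in a thin sheet under the mucosa and in the thick outer coat that moves its contents. Smooth muscle shortens when calcium and calmodulin switch on myosin light chain kinase, which phosphorylates the regulatory light chain of myosin and lets myosin pull on actin. Myosin phosphatase reverses that step, and nitric oxide and cGMP promote relaxation. Many of the genes involved are controlled by serum response factor (SRF), which binds a short DNA element called the CArG box, together with the coactivators myocardin and the MRTF proteins.

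The levels are FPKM, fragments scaled to transcript length and library depth, and are therefore comparable between genes of a library. The depth recovered from the table was between 17990950 and 18781850 fragments per library. Between 22456 and 23600 genes were above 0 in the Gm31629-/- libraries and between 19938 and 20118 in the WT libraries. Gm31629-/- mouse 1 stood apart from the other 5 mice, with the Y-linked transcript Ddx3y at 9.27 FPKM and the female-specific transcript Xist at 0.00606, while Xist lay between 8.35 and 13.8 in the others and Ddx3y was listed at 0. The study's methods describe the animals as male, which the transcripts of the other 5 libraries go against, and the labels give no sex. By these transcripts sex differed within the Gm31629-/- group, and values without mouse 1 are given where they change a call. Gm31629 itself was not analysed here, so the genotype labels could not be checked against it. In bulk tissue, fewer cells of a type and less RNA per cell cannot be told apart.

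Promoters of these genes were read from RefSeq (build GRCm38.p6), as the 250 bases before and 50 bases after each annotated start. There were 48 windows for 39 of the 45 genes, some genes having several, and none for Tagln, Actg2, Myh11, Myocd, Csrp2 and Itpr1. A gene was counted if any of its windows held a box. A CArG box was defined as 2 C, then 6 bases of A or T, then 2 G, and read on both strands. Such a box lay in a window of 6 genes (15.4% of 39), against 488 of 27025 genes (1.81%) over the whole reference. The 6 were Srf, Myl9, Cnn2, Vcl, Ldb3 and Myl6, and the Myl6 box, which lies inside an annotated exon, is not shown. The other 5 are printed 5′ to 3′ along the gene's own strand with the boxes in capitals, because they cover genes that were called higher and genes that were not. Srf, which encodes the box-binding factor, has 2 boxes, at chr17:46556195-46556284 on the minus strand. Myl9 is shown at chr2:156775263-156775352 (plus), Cnn2 at chr10:79988504-79988593 (plus), Vcl at chr14:20929148-20929220 (plus) and Ldb3 at chr14:34588682-34588756 (minus).
Srf: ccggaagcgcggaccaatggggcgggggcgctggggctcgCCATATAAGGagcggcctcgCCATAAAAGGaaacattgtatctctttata
Myl9: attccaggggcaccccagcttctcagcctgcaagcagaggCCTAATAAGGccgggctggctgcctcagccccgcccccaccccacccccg
Cnn2: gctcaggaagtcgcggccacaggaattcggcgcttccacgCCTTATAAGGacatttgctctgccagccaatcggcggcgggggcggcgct
Vcl: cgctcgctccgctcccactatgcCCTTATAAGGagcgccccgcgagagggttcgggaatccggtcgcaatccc
Ldb3: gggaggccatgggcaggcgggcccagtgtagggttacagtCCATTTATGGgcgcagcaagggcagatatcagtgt

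The boxes began 82 and 62 bases before the start of Srf, 161 before Myl9, 56 before Cnn2, 227 before Vcl and 35 before Ldb3. Of these 5 genes, Myl9 and Cnn2 were called higher in Gm31629-/- colon, while Srf, Vcl and Ldb3 were not called. A match of letters in a window of 300 bases is a description and does not show binding. Many genes of the apparatus are known SRF targets, so their share with a box is a description and enrichment was not tested.

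Smooth muscle transcripts were much more abundant in the Gm31629-/- libraries. The 28 muscle-enriched genes summed to 3326, 2501 and 2101 FPKM in Gm31629-/- mice 1, 2 and 3 (0.954%, 0.746% and 0.585% of all FPKM of the library). Their sum was 79.7, 108 and 79.9 FPKM in WT mice 1, 2 and 3 (0.0226%, 0.0313% and 0.0227%). The 17 broadly expressed genes summed to 1073, 1268 and 1063 FPKM in Gm31629-/- mice and to 825, 776 and 764 FPKM in WT mice. For both sums each Gm31629-/- library was above each WT library. The classes were set with earlier results of these data known, so the sums by class are a description and not a contrast.

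Differences between genotypes were tested with limma on log2(FPKM + 1), and calls required an adjusted p (Benjamini-Hochberg) under 0.05 together with a log2 difference beyond 1 in either direction. Of the 45 genes, 41 passed the filter on low values (mean FPKM of at least 0.5 over the 6 libraries). Among these 41, 11 had a WT mean under 0.5 and passed through the Gm31629-/- libraries alone, as did 2207 of the 14657 genes tested in all (15.1%). Of the tested genes of the apparatus, 31 were called higher in Gm31629-/- mice, 1 was called lower and 9 were not called. Over all tested genes, 18.4% were called higher and 4.64% lower, that is 2704 and 680 genes. With each library rescaled by its median ratio those totals were 2242 and 1225, and the apparatus gave 27 called higher and 2 lower. Without Gm31629-/- mouse 1 it gave 31 higher and 2 lower, the second being Ldb3. The median log2 difference was 2.27 over the 41 genes and 0.15 over all tested genes, and the latter became -0.06 under the median ratio. Because a fold on this scale is damped for low genes, ratios of mean FPKM are given for the genes whose WT mean was lowest and for some others.

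In 37 of the 45 genes every Gm31629-/- library was above every WT library, and in 33 of the 41 tested. Over all tested genes this held for 36.3%. In Csrp2 and Actn4 every Gm31629-/- library was below every WT library, and the groups overlapped in 6 genes, namely Myh9, Actn1, Vcl, Ldb3, Srf and Mkl1. The share of all tested genes that lay below in this way is not given here, so Csrp2 and Actn4 are named as a description. Of the 24 muscle-enriched genes tested, 22 were called higher, none was called lower, and Tagln and Ldb3 were not called. Of the 17 broadly expressed genes, 9 were called higher, 1 lower and 7 not. The split was made by hand with earlier results of these data known. Csrp2, the gene called lower, was placed among the broadly expressed genes and its paralog Csrp1 among the muscle-enriched ones. The counts by class are therefore a description and not a contrast.

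**Figure D1:**
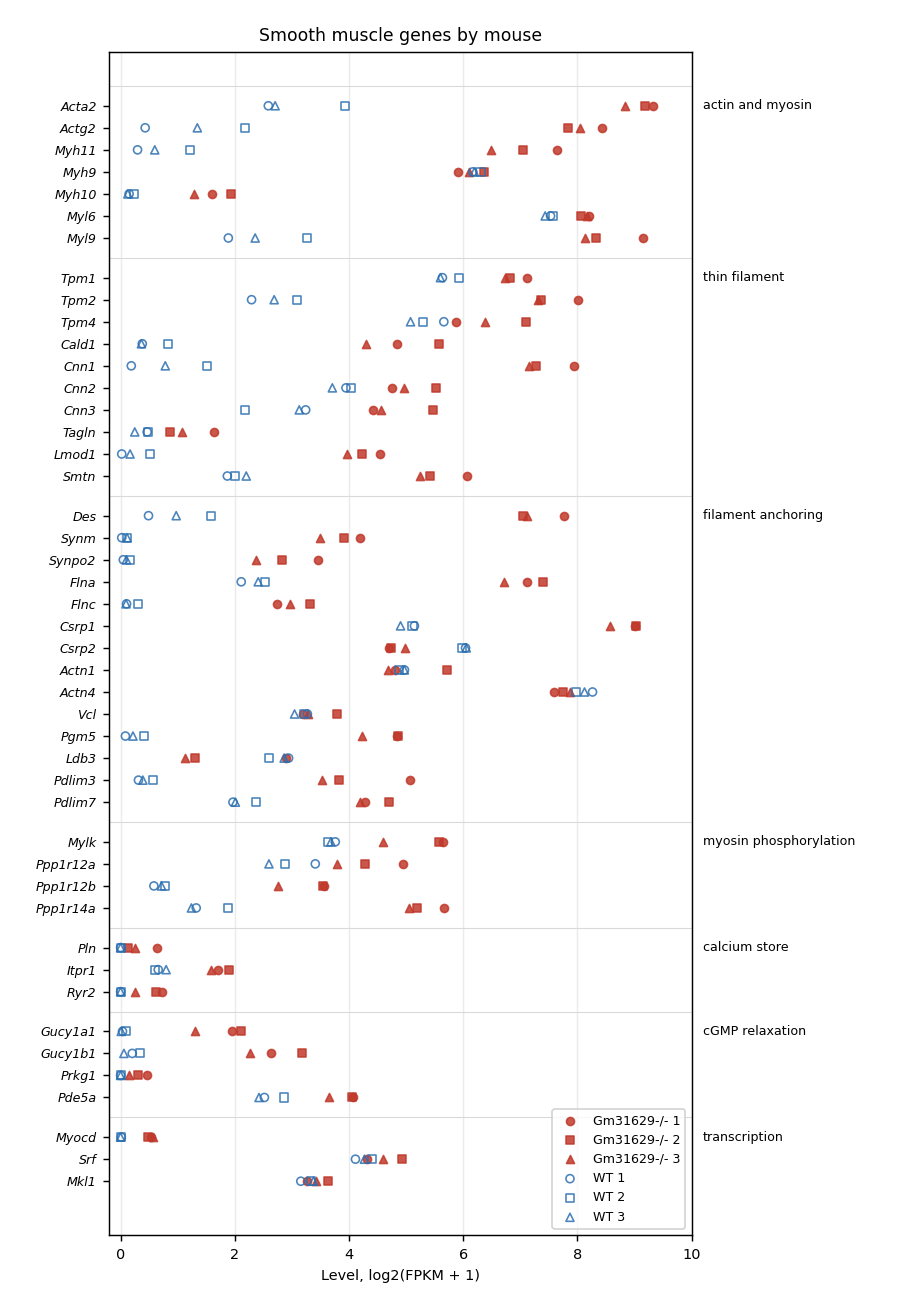
Level of each of the 45 genes in each mouse, as log2(FPKM + 1), grouped by role; filled red symbols are Gm31629-/- mice and open blue symbols WT mice. In 37 genes the red symbols all lie to the right of the blue ones, and in Csrp2 and Actn4 all lie to the left.

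Of the 7 actin and myosin genes, 5 were called higher and 2 were not called, with a median log2 difference of 6.04. In what follows, the values of a gene are given for mice 1, 2 and 3 of each genotype. Acta2 (chr19:34241090-34255590, minus strand), the alpha actin of smooth muscle, read 640.5, 579 and 453 FPKM in Gm31629-/- mice and 5.01, 14.2 and 5.53 in WT mice, a ratio of means of 67.6. Its log2 difference was 6.04 (SE 0.36, adjusted p = 0.000151). Actg2 (chr6:83512905-83536265, minus strand), the gamma actin typical of visceral muscle, read 346, 226 and 265 FPKM against 0.347, 3.53 and 1.54, a ratio of 154. The difference was 6.79 (SE 0.42, adjusted p = 0.000173), the largest of the 41. For both actins the lowest Gm31629-/- mouse was far above the highest WT mouse, and WT mouse 2 was the highest of its group.

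Myh11 (chr16:14194535-14291372, minus strand), the smooth muscle myosin heavy chain, read 199, 130.5 and 88.9 FPKM in Gm31629-/- mice and 0.228, 1.32 and 0.513 in WT mice, a ratio of 204, with a log2 difference of 6.36 (SE 0.34, adjusted p = 0.000113). Myl9 (chr2:156775420-156781658, plus strand), the regulatory light chain that the kinase phosphorylates, read 568, 321 and 281 FPKM against 2.70, 8.56 and 4.12 (6.04, SE 0.40, adjusted p = 0.000204). In both genes Gm31629-/- mouse 1 was the highest and mouse 3 the lowest, and the genotypes did not overlap. The nonmuscle myosins differed from this pattern. Myh9, the nonmuscle heavy chain IIA, was at 59.2, 81.3 and 67.4 FPKM in Gm31629-/- mice and at 70.9, 78.0 and 72.3 in WT mice, with the groups overlapping (-0.10, adjusted p = 0.633). Myh10, the IIB heavy chain, was low but called higher, at 2.03, 2.80 and 1.44 FPKM against 0.109, 0.175 and 0.0916, a ratio of 16.7 (1.43, adjusted p = 0.00173). Myl6, the essential light chain shared by muscle and other cells, was at 293, 267 and 287 FPKM against 184, 189 and 172. Its ratio of 1.55 passed on adjusted p (0.0091) but not on size (0.63).

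The thin filament genes include tropomyosins, which lie along actin, and the actin-binding proteins caldesmon and calponin. Of the 10, 9 were called higher and 1 was not called, with a median log2 difference of 2.76. Cnn1 (chr9:22099216-22109630, plus strand), the calponin of differentiated smooth muscle, read 243, 154 and 141 FPKM in Gm31629-/- mice and 0.138, 1.85 and 0.720 in WT mice (6.63, SE 0.36, adjusted p = 0.000113). The mean was 199 times higher, and each WT library sat below 2 FPKM. The broadly expressed calponins started from a higher WT level. Cnn2 was at 25.9, 45.3 and 30.1 FPKM against 14.4, 15.3 and 12.1 (1.19, adjusted p = 0.00579), and Cnn3 at 20.5, 43.6 and 22.5 against 8.46, 3.55 and 7.74 (1.97, adjusted p = 0.00592). Without Gm31629-/- mouse 2, the highest for Cnn2, its difference was 0.96 and it was no longer called.

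Among tropomyosins, Tpm2 was at 256, 163 and 158 FPKM in Gm31629-/- mice and 3.90, 7.48 and 5.45 in WT mice (4.87, adjusted p = 0.000113). Tpm1 was at 138, 112.5 and 105 FPKM against 48.7, 60.1 and 47.5 (1.17, adjusted p = 0.00207), and its difference of 0.91 under the median ratio was short of the size threshold. Tpm4, a tropomyosin found mainly outside muscle, was at 57.4, 135.5 and 82.9 FPKM against 49.6, 38.4 and 32.8 (1.10, adjusted p = 0.0272). Tpm4 was the least stable of these calls, and was lost in 4 of the 6 fits that left out a mouse (Gm31629-/- mouse 2 or 3, WT mouse 2 or 3), with an adjusted p of up to 0.102. Cald1, caldesmon, was at 27.7, 46.5 and 18.7 FPKM against 0.301, 0.775 and 0.287, a ratio of 68.2 (4.38, adjusted p = 0.000265). Lmod1, leiomodin, which nucleates actin filaments, was at 22.4, 17.7 and 14.7 FPKM against 0.0137, 0.422 and 0.121, from 1, 30 and 9 fragments in the WT libraries, a ratio of 98.3 (4.02, adjusted p = 0.000113). Smtn, smoothelin, was at 66.0, 41.8 and 36.8 FPKM against 2.65, 3.02 and 3.60 (3.55, adjusted p = 0.000204).

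Tagln, transgelin or SM22 alpha, ordinarily an abundant smooth muscle transcript, was the exception of its group. It was at 2.11, 0.818 and 1.10 FPKM in Gm31629-/- mice and 0.381, 0.391 and 0.187 in WT mice, with a ratio of 4.19 and a log2 difference of 0.79 (adjusted p = 0.0268), short of the size threshold. All 3 Gm31629-/- libraries were above the WT libraries, but the level was far below that of Acta2. In the annotation, 67.9% of the exon bases of Tagln are shared with Gm48529 and Pcsk7 on the opposite strand. The strand setting of the counting is not given in the sources used here, so the Tagln value is uncertain and its part in the result was not tested. Pln shares 64.7% of its exon bases in the same way, Vcl 25.5%, and 28 of the 45 genes share none.

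**Figure D2:**
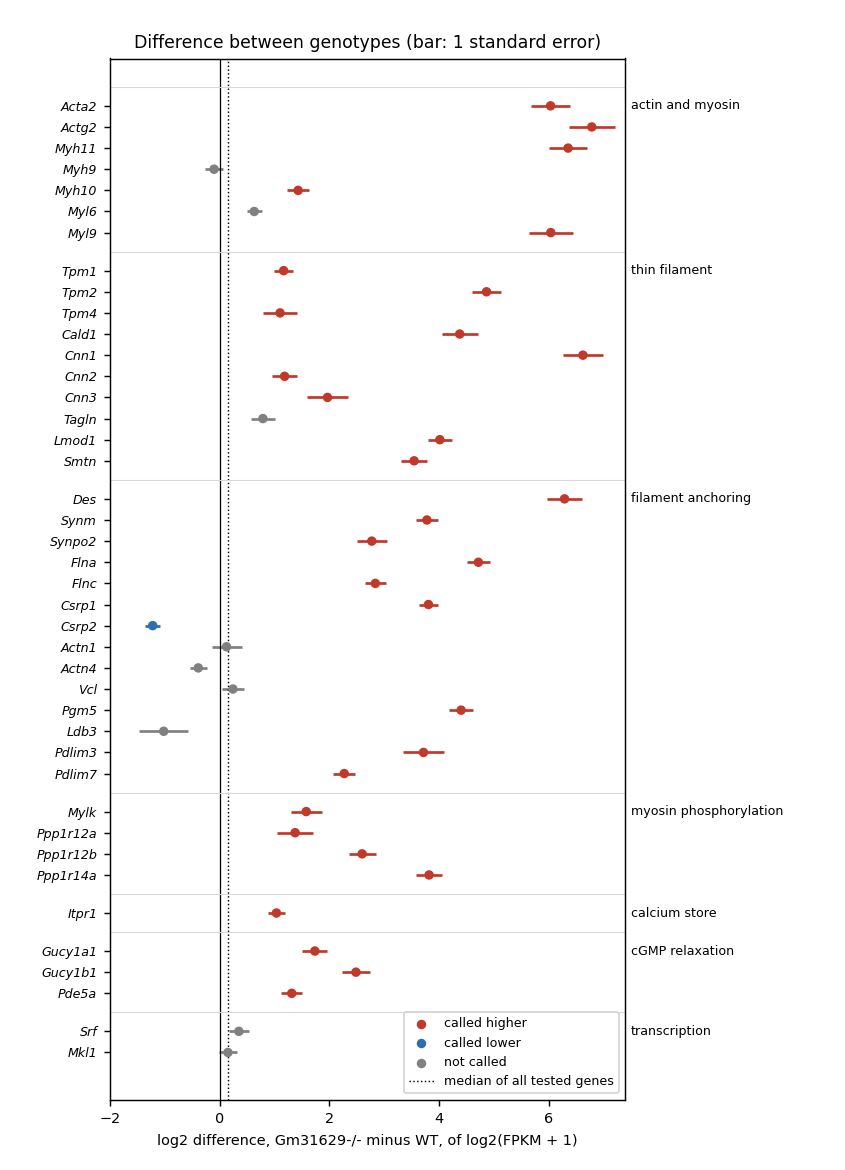
Log2 difference (Gm31629-/- minus WT, on log2(FPKM + 1)) of the 41 tested genes with 1 standard error, coloured by call; the dotted line is the median of all tested genes at 0.15. The values run from -1.22 for Csrp2 to 6.79 for Actg2, and 31 genes are coloured as called higher.

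The genes that anchor filaments included both the lowest adjusted p values and the one call in the opposite direction, with 9 of 14 called higher, 1 lower and 4 not called. Des (chr1:75360329-75368579, plus strand), desmin, the intermediate filament of muscle, read 215, 132 and 137 FPKM in Gm31629-/- mice and 0.403, 1.997 and 0.964 in WT mice, a ratio of 144 (6.29, SE 0.31, adjusted p = 0.000111). Synm, synemin, a partner of desmin, was at 17.2, 14.0 and 10.3 FPKM against 0.0136, 0.0770 and 0.0805, from 2, 11 and 12 WT fragments, a ratio of 242 (3.78). Flna (chrX:74223461-74249820, minus strand), filamin A, which cross-links actin, read 137, 168 and 104 FPKM against 3.32, 4.77 and 4.31 (4.72, SE 0.21, adjusted p = 9.1e-05). Csrp1, a LIM domain protein of the actin cytoskeleton, was at 513, 518 and 378 FPKM against 34.4, 33.6 and 28.9 (3.81, SE 0.17, adjusted p = 9.1e-05). Flna and Csrp1 had the lowest adjusted p of the 41 genes.

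Further members of the group moved the same way at lower levels. Synpo2, synaptopodin 2, was at 9.95, 6.08 and 4.17 FPKM in Gm31629-/- mice, with WT mice between 0.0329 and 0.123, a ratio of 88.4 (2.78, adjusted p = 0.000578). Flnc, the muscle filamin, was at 5.71, 8.95 and 6.83 FPKM against 0.0747, 0.236 and 0.0679, a ratio of 56.7 (2.84, adjusted p = 0.000218). Pgm5, aciculin, a protein of adhesion sites, was at 27.8, 27.9 and 17.6 FPKM against 0.0599, 0.323 and 0.162, a ratio of 135 (4.41, adjusted p = 0.000111). The PDZ-LIM genes Pdlim3 and Pdlim7, whose products bind alpha actinin or tropomyosin, were called higher by 3.72 (adjusted p = 0.00064) and 2.27 (adjusted p = 0.000393). Pdlim3 was at 32.7, 13.1 and 10.6 FPKM, so mouse 1 was well above the other Gm31629-/- mice, against 0.242, 0.475 and 0.310 in WT mice, a ratio of 54.9. Pdlim7 was at 18.4, 25.0 and 17.2 FPKM against 2.91, 4.15 and 3.03.

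Csrp2 (chr10:110919789-110939622, plus strand), the paralog of Csrp1, went the other way. It read 24.9, 25.6 and 30.7 FPKM in Gm31629-/- mice and 64.8, 61.8 and 65.4 in WT mice, a ratio of 0.422 (-1.22, SE 0.14, adjusted p = 0.000875). The highest Gm31629-/- library was below the lowest WT library by more than the spread within either group. Actn4, the nonmuscle alpha actinin, was at 193, 213 and 233 FPKM against 307, 252 and 278, also without overlap but not called (-0.39, adjusted p = 0.0778). Actn1 was at 26.8, 51.9 and 24.7 FPKM against 30.4, 28.5 and 30.3 (0.13, adjusted p = 0.727), and its sign turned to -0.20 without Gm31629-/- mouse 2 and to -0.13 under the median ratio. Vcl, vinculin, which links actin to adhesion sites, was at 8.17, 12.8 and 8.69 FPKM against 8.65, 8.26 and 7.26 (0.24, adjusted p = 0.337).

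Ldb3, a PDZ-LIM protein best known from the Z disc of striated muscle, was at 6.48, 1.48 and 1.19 FPKM in Gm31629-/- mice and at 6.69, 5.03 and 6.28 in WT mice. Gm31629-/- mouse 1 lay within the WT range and mice 2 and 3 below it, and the gene was not called (-1.02, SE 0.45, adjusted p = 0.104). Without Gm31629-/- mouse 1 the difference was -1.58 (adjusted p = 0.00146) and Ldb3 was called lower. It was also called lower under the median ratio (-1.22, adjusted p = 0.0488). Ldb3 was the one muscle-enriched gene in which the Gm31629-/- libraries were not all above the WT libraries.

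All 4 genes of myosin phosphorylation were called higher, with a median log2 difference of 2.09. Mylk, the myosin light chain kinase gene, was at 49.3, 46.5 and 23.2 FPKM in Gm31629-/- mice and 12.5, 11.4 and 11.8 in WT mice (1.58, SE 0.28, adjusted p = 0.00468). Ppp1r12a, the targeting subunit of myosin phosphatase found in most cells, was at 29.8, 18.4 and 12.8 FPKM against 9.63, 6.32 and 5.06 (1.38, adjusted p = 0.0144). Without WT mouse 3 its adjusted p was 0.0609 and it was not called. Ppp1r12b, the subunit of striated and smooth muscle, was at 10.8, 10.7 and 5.77 FPKM against 0.498, 0.708 and 0.643, a ratio of 14.8 (2.60, adjusted p = 0.000501). Ppp1r14a, CPI-17, which inhibits the phosphatase, was at 49.9, 35.5 and 32.1 FPKM against 1.503, 2.68 and 1.36 (3.82, adjusted p = 0.000185). Kinase, phosphatase subunits and phosphatase inhibitor were thus all higher, and Gm31629-/- mouse 3 was the lowest of its group in each.

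Genes of the calcium store were low. Itpr1, the inositol trisphosphate receptor, was called higher at 2.24, 2.71 and 2.01 FPKM against 0.578, 0.525 and 0.738, a ratio of 3.78 (1.04, adjusted p = 0.0027), close to the size threshold. Its difference fell under 1 without Gm31629-/- mouse 2 (0.95), without WT mouse 2 (0.998) and under the median ratio (0.90). Ryr2, a ryanodine receptor, and Pln, phospholamban, which restrains the calcium pump of the store, did not reach the filter and were not tested. Ryr2 was at 0.651, 0.533 and 0.197 FPKM in Gm31629-/- mice (345, 283 and 104 fragments), against 0, 1 and 0 fragments in WT mice. Pln was at 0.552, 0.0982 and 0.197 FPKM in Gm31629-/- mice (28, 5 and 10 fragments) and at 0 fragments in each WT library. A count of 0 allows up to 3 fragments, which puts the ratio of Pln means at 4.78 or more where counting error alone is allowed for. Pln, like Tagln, shares most of its exon bases (64.7%) with genes on the opposite strand, so its value is uncertain.

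Among genes of relaxation through cGMP, Gucy1a1 and Gucy1b1, the subunits of the nitric oxide receptor guanylate cyclase, were both called higher. Gucy1a1 was at 2.85, 3.31 and 1.46 FPKM in Gm31629-/- mice, with 3, 8 and 1 fragments in WT mice, a ratio of 80.4 (1.74, adjusted p = 0.00156). Gucy1b1 was at 5.23, 8.00 and 3.78 FPKM against 0.151, 0.269 and 0.0407, a ratio of 36.9 (2.49, adjusted p = 0.000597). Within each Gm31629-/- library the Gucy1b1 level was above that of its partner subunit. Pde5a, the phosphodiesterase that breaks down cGMP, was already present in the WT libraries at 4.73, 6.29 and 4.37 FPKM. It read 15.7, 15.6 and 11.5 in the Gm31629-/- libraries (1.32, adjusted p = 0.00221). Prkg1, the cGMP-dependent kinase, was under the filter, with 77, 47 and 22 fragments in Gm31629-/- mice and 0 in each WT library, at least 16.2-fold higher at a floor of 3 fragments per library.

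Of the transcriptional regulators, Srf and Mkl1 were tested and neither was called. Srf was at 19.0, 29.6 and 23.1 FPKM in Gm31629-/- mice and at 16.3, 20.2 and 18.3 in WT mice (0.35, SE 0.19, adjusted p = 0.166). Mkl1, which encodes the coactivator MRTF-A, was at 8.59, 11.4 and 9.78 FPKM against 7.91, 9.10 and 9.38 (0.15, adjusted p = 0.460), and its difference was -0.083 under the median ratio. In both genes the groups overlapped. Myocd, the muscle-restricted coactivator myocardin, was under the filter. It had 52, 47 and 56 fragments in Gm31629-/- mice (0.440, 0.397 and 0.475 FPKM) and 1, 1 and 0 fragments in WT mice.

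Which of these genes were already expressed in the WT libraries was read from a level of at least 1 FPKM in each of the 3 WT libraries. This held for 24 of the 45 genes, of which 10 were muscle-enriched (Acta2, Myl9, Tpm2, Smtn, Csrp1, Ldb3, Pdlim7, Mylk, Ppp1r14a and Pde5a) and 14 broadly expressed. Of the 24, 15 were called higher, 1 lower and 8 not, with a median log2 difference of 1.25. The other 21 genes, 18 of them muscle-enriched, included Actg2, Myh11, Cnn1, Des, Lmod1, Synm and Pgm5. Of these 21, 17 were tested and 16 called higher (median 3.72), and Tagln was the one not called. The shares over all tested genes were 18.4% called higher and 4.64% called lower. Since a gene low in WT passes the filter only through a high Gm31629-/- level, the second count is a description and not a contrast with the first. A gene below 1 FPKM was scarce in these WT libraries, which does not show that WT colon fails to express it. The summed markers of fibroblasts, endothelium, neurons and glia were also lower there than in the Gm31629-/- libraries. How much muscle wall each library holds was not tested.

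The order of the genes by abundance differed between the genotypes. In the WT libraries the highest mean level was that of Actn4 (279 ± 27.4 FPKM, SD, n = 3), ahead of Myl6 (182 ± 8.51), Myh9 (73.7 ± 3.74), Csrp2 (64.0 ± 1.91) and Tpm1 (52.1 ± 6.91), all of them placed among the broadly expressed genes. In the Gm31629-/- libraries it was that of Acta2 (557 ± 95.5 FPKM), followed by Csrp1 (470 ± 79.2), Myl9 (390 ± 156), Myl6 (282 ± 13.3) and Actg2 (279 ± 60.9). In the WT libraries each step in that order was larger than the SDs of both neighbours, whereas in the Gm31629-/- libraries no step exceeded the larger SD of the pair.

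Paralogs of one protein family let the muscle isoform be set against the general isoform within the same library. Across 6 families, the muscle isoform's share of the family's summed FPKM was higher in every Gm31629-/- library than in every WT library. Acta2 and Actg2 made up 28.4%, 21.2% and 24.5% of the 4 actins counted in Gm31629-/- mice and 0.203%, 0.737% and 0.312% in WT mice. Myh11 was 44.2%, 39.2% and 28.2% of the myosin heavy chains, against 0.102%, 0.488% and 0.210%. Myl9 was 59.8%, 47.4% and 36.5% of the regulatory light chains, against 0.622%, 1.79% and 0.890%. Actb and Actg1, the cytoplasmic actins, averaged 1680 and 886 FPKM in Gm31629-/- mice and 1516 and 912 in WT mice, and neither was called (0.14 and -0.05). Myh14, Myl12a and Myl12b, nonmuscle myosin genes, were also not called (-0.16, -0.14 and -0.17).

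The same held for the other families. Tpm2 was 48.2%, 29.6% and 35.6% of the tropomyosins in Gm31629-/- mice, against 1.65%, 3.20% and 2.40%, while Tpm3 was not called (-0.38, adjusted p = 0.186). Cnn1 was 84.0%, 63.4% and 72.8% of the calponins, against 0.601%, 8.92% and 3.50%. Ppp1r12b was 15.3% ± 1.89 (SD, n = 3) of the phosphatase targeting subunits against 4.21% ± 1.07, and there the general paralog Ppp1r12c was called higher as well (1.88). In each of the 6 families the exact two-sided permutation test over the 6 libraries gave p = 0.1 (adjusted over the families, also 0.1), the smallest value that 3 against 3 allows, so no share could pass 0.05.

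**Figure D3:**
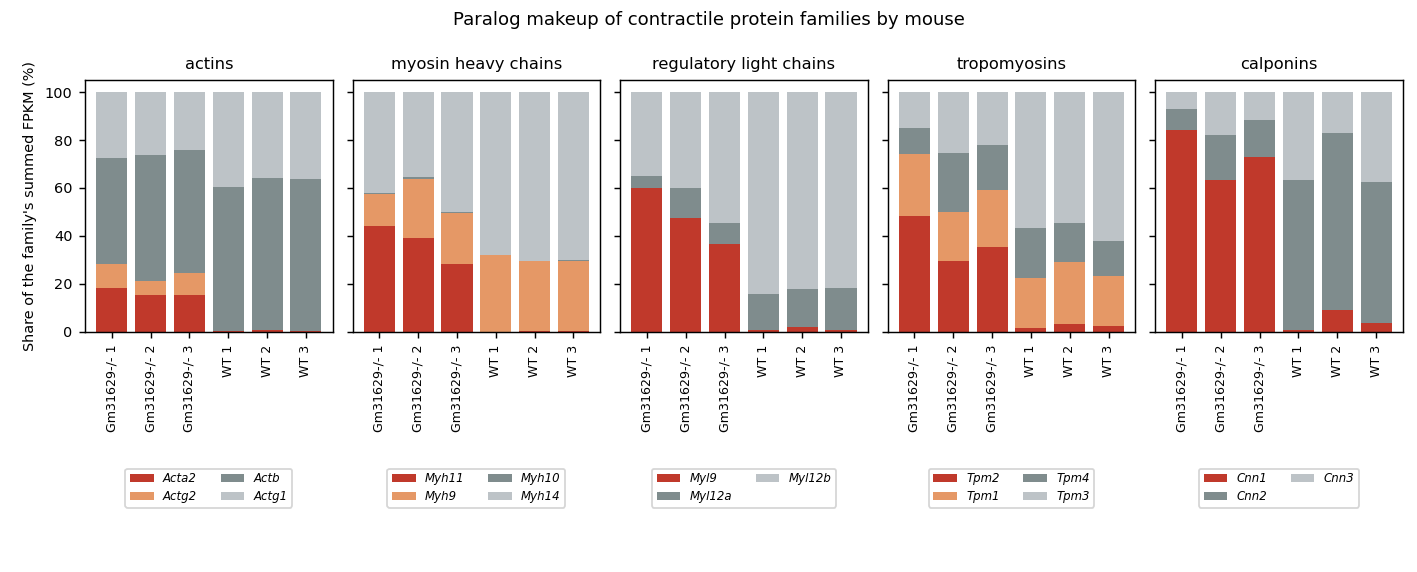
Share of each paralog in the summed FPKM of its family (percent) for 5 families, with 1 bar per mouse and the muscle isoform at the bottom in red (for actins, red Acta2 and orange Actg2). The red part is large in the 3 Gm31629-/- bars, as for Cnn1 at 63.4% to 84.0%, and at most 8.92% in the WT bars.

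Within the Gm31629-/- group, muscle-enriched and broadly expressed genes were highest in different mice. Mouse 1, the only one with Y-linked transcripts, had the highest level of its group in 21 of the 28 muscle-enriched genes. It was also the highest in 3 of the 17 broadly expressed ones. Mouse 2 was the highest in 6 of the 28 and in 12 of the 17. Mouse 3 was the lowest in 22 of the 28. The median level relative to the group mean was 1.26, 0.952 and 0.753 in mice 1, 2 and 3 for the muscle-enriched genes, and 0.895, 1.23 and 0.887 for the broadly expressed ones. Among WT mice, mouse 2 was the highest in 21 and mouse 1 the lowest in 18 of the 28 muscle-enriched genes. The share of all tested genes in each such order is not given here, so the counts are a description. The genes thus shared an order of mice, so that they do not count as separate evidence of the genotype difference.

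**Figure D4:**
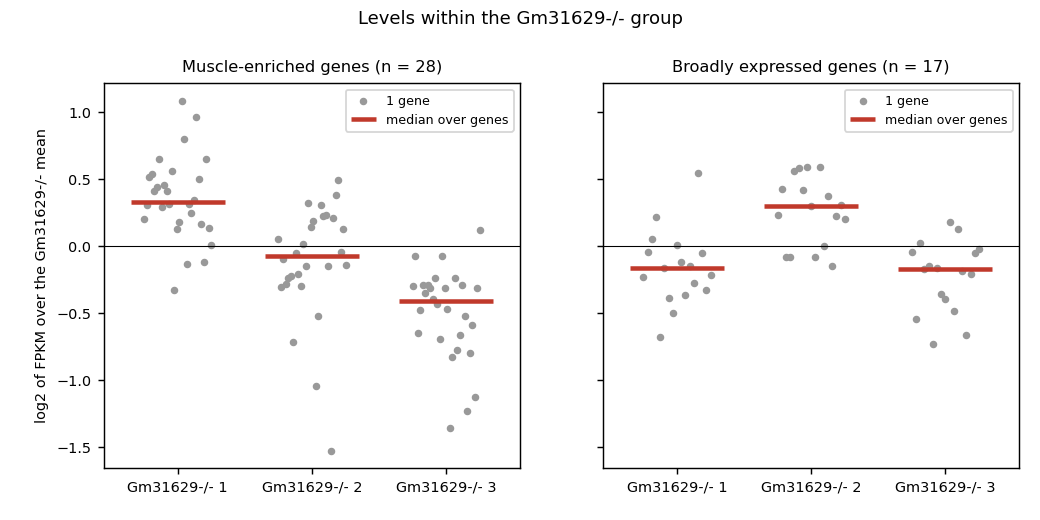
Level of each gene in each Gm31629-/- mouse relative to the mean of the 3 (log2 scale), with muscle-enriched genes on the left, broadly expressed genes on the right, and the median over genes as a red line. On the left mouse 1 has the highest median (ratio 1.26) and on the right mouse 2 (ratio 1.23).

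Further genes of the same machinery, outside the 45, were read from a list of 64 genes, all found in the table. Of 56 tested, 22 were called higher, 1 lower and 33 not (median log2 difference 0.61, against 0.15 over all tested genes). Over all tested genes, 18.4% were called higher and 4.64% lower. Genes of calcium entry and removal had 5 of 9 called higher, led by Jph2 (junctophilin 2, 3.40), which ties the store to the cell membrane. Dystrophin complex and caveola genes had 6 of 8 called higher, led by Cav1 (caveolin 1, 4.20), and Dag1 (dystroglycan) called lower (-1.04, adjusted p = 0.00168). Adhesion plaque genes had 4 of 10 called higher, led by Fermt2 (kindlin 2, 3.93).

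Of 8 RhoA signalling genes tested, 2 were called higher, with Rock1 at 1.26 (adjusted p = 0.0144), a kinase that inhibits myosin phosphatase. Of 5 genes of cGMP and cAMP signalling, 2 were called higher, led by Mrvi1 (3.35), a substrate of the cGMP kinase at the calcium store. Of 8 transcription genes, 3 were called higher, led by Foxf1 (3.51), a factor of gut mesenchyme, which was at 19.5, 43.5 and 25.0 FPKM in Gm31629-/- mice and 1.16, 2.69 and 1.01 in WT mice. None of the 8 tested actin and myosin paralogs was called. These lists are short, and none was tested against the 18.4% called higher over all tested genes.

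Many markers of other cells of the colon wall were also higher in the Gm31629-/- mice, and their part in the result was not tested. Over all tested genes, 18.4% were called higher. Listed fibroblast genes were all called higher (7 of 7, summed level 199 to 565 FPKM in Gm31629-/- mice and 17.4 to 37.6 in WT mice, led by Col3a1), as were those of pericytes (6 of 6, 92.8 to 195 against 3.19 to 6.97, led by Rgs5) and endothelium (6 of 6, 37.1 to 80.4 against 2.21 to 5.55, led by Pecam1). Enteric neuron genes were called higher in 7 of 8 (46.1 to 169 against 2.72 to 5.28, led by Prph), and enteric glia genes in 5 of 5 tested of 6 (11.1 to 33.1 against 0.150 to 0.285, led by Gfap). Of the 4 genes of interstitial cells of Cajal, the pacemaker cells of gut muscle, 2 were called higher. These were Thbs4 (1.42), the highest in level, and Etv1 (1.04), while Kit and Ano1 were not called (0.02 and -0.02). Adipocyte genes were called higher in 3 of 4 tested of 5 (121 to 464 against 3.96 to 41.1, led by Cfd) and mesothelial genes in 2 of 3 tested of 4 (3.43 to 40.6 against 2.51 to 3.00, led by Msln).

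Colon epithelium markers were abundant in all 6 libraries. Their sum was 6270 to 7380 FPKM in Gm31629-/- mice and 10549 to 11423 in WT mice, and 3 of 10 were called lower (Krt8, the most abundant, with Krt19 and Cdx2), the other 7 not. Over all tested genes, 4.64% were called lower. For skeletal muscle, 3 of 9 listed genes were tested and Ckm was called higher (1.17), while the myosin heavy chain genes Myh1 and Myh2 were at or near 0 (at most 0.0915 FPKM). Acta1, the skeletal actin, was at 104, 38.3 and 6.24 FPKM in Gm31629-/- mice and 11.0, 13.1 and 8.00 in WT mice (1.43, adjusted p = 0.212). Within the Gm31629-/- group, 4 of the 9 skeletal muscle genes were highest in mouse 1, 1 in mouse 2 and 4 in mouse 3. The fibroblast, endothelial and glial markers were each highest of the group in Gm31629-/- mouse 2 (7 of 7, 6 of 6 and 6 of 6 genes). So were those of adipocytes (5 of 5), mesothelium (4 of 4), neurons (7 of 8) and pericytes (5 of 6), and 2 of 4 of interstitial cells of Cajal. The muscle-enriched genes were highest in mouse 1, the only one with Y-linked transcripts, in 21 of 28. What underlies this difference in order was not tested.

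**Figure D5:**
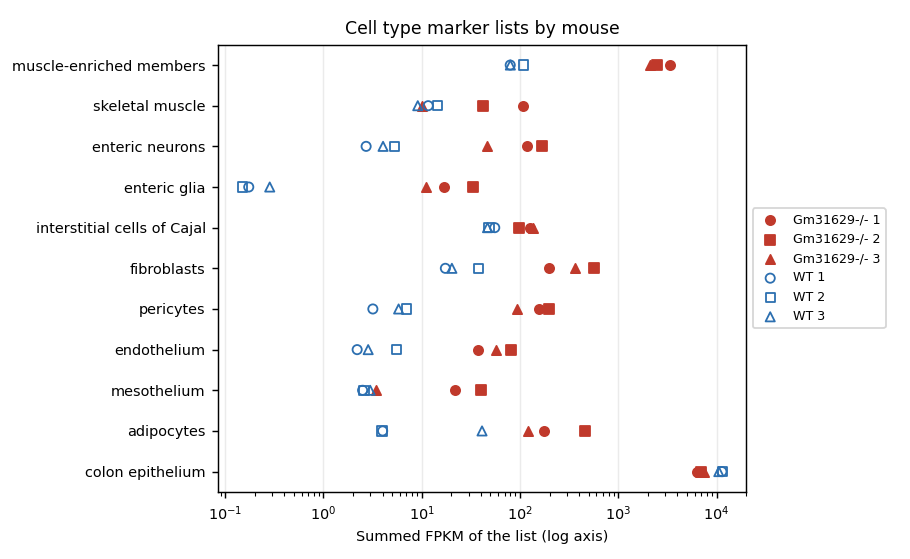
Summed FPKM (log axis) of the 28 muscle-enriched genes and of 10 cell type marker lists in each mouse, with filled red symbols for Gm31629-/- and open blue symbols for WT mice. The red symbols lie right of the blue ones for fibroblast, endothelial, pericyte, neuronal and glial lists and left of them for colon epithelium (6270 to 7380 against 10549 to 11423 FPKM).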

How the data were processed

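The authors deposited a table of FPKM values for 27546 genes with 1 column per mouse. FPKM scales the fragments of a gene by its length and by library depth, which the authors did before deposit. The submitters' processing notes name HISAT2 2.1.0, HTSeq 0.6.0 and build GRCm38, while the strand setting and the annotation release are not given in the sources used here. Gene symbols, coordinates and exon lengths came from GENCODE M21 (GRCm38), which matched 27488 identifiers. Mkl1 was matched through its RefSeq synonym.

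The fragments behind each value were recovered from FPKM, exon length and depth. Among values of at most 20 fragments, 96.3% to 97.2% per library came within 0.1 of an integer. Fragment limits cover counting error only.

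Groups and mouse numbers came from the labels. The 14657 genes averaging 0.5 FPKM or more entered limma 3.58.1 in R 4.3.3 as log2(FPKM + 1), using lmFit and then eBayes (trended), and p-values were adjusted by Benjamini-Hochberg across them. The script was tested on simulated data. Shares of paralogs were compared with exact permutation tests in scipy 1.17.1. Of 7 families compared, 1 is not reported here. All 45 members are named. Of the companion lists, the called gene with the largest difference in each direction is named, and of the marker lists the most abundant gene. Ckm, Myh1, Myh2, Kit, Ano1, Etv1, Krt19 and Cdx2 were named after their values were seen. The members and lists were chosen with earlier results of these data known, so no set was tested and no p was adjusted over a list.

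Alternatives covered the pseudocount, the filter on low values, the scaling, the trend, a replicate block, voom on recovered fragments, the size threshold, and leaving out each mouse.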

Additional observations from a re-analysis of the deposited data

How the results depend on the processing

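The direction of the difference held for the 32 called genes under each alternative fit that included them, and 7 of them had too low a level for the fit at a mean FPKM of at least 5. Of the 32, 28 kept their call in the 6 fits that left out a mouse. The count called higher was 31 of 41 and lay between 24 (of 32 tested at a mean FPKM of at least 5) and 33 (adjusted p alone), with 27 under the median ratio and 28 to 31 with a mouse left out. The count called lower was 1, and 2 under the median ratio, and 1 to 2 with a mouse left out, the second gene being Ldb3. The median log2 difference of the apparatus was 2.27, and became 3.64 at a pseudocount of 0.1, 1.74 over all 45 genes with no filter, 2.91 at a mean FPKM of at least 5, and 3.85 with voom. Tagln was called higher at a pseudocount of 0.1 (1.72) and with voom (1.98). Tpm1, Tpm4, Cnn2 and Itpr1 were not called under the median ratio, and Tpm4 was not called with no filter. The sign turned for Actn1 (-0.13) and Mkl1 (-0.083) under the median ratio and, with a mouse left out, for Myh9 (-0.22 to 0.0072) and Actn1 (-0.20 to 0.32), none of them called. The cause of these changes was not tested.

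Over all genes, 1225 were called lower under the median ratio. At a mean FPKM of at least 5, 956 were called higher, and by adjusted p alone 4238 were higher and 2138 lower. Shared numbers did not pair the mice: the correlations of same-numbered deviations were 0.04, -0.11 and 0.01. A fit with the replicate block called 31 higher and 1 lower with no changed call. Depth limits the genes with under 10 fragments in WT libraries, whose ratios rest on few counts. Groups of 3 mice were too small for an outlier test.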
